A study of Parasteatoda tepidariorum with 20 samples.

Results

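The Sox gene models of the common house spider Parasteatoda tepidariorum were followed through early embryogenesis. They were chosen by name alone, as the gene models whose deposited description contains a numbered SOX name, SoxNeuro or a sex-determining region Y name, and 14 of the 27990 AUGUSTUS gene models on the Ptep_1.0 assembly met this rule. Whole embryos of the isolate Osaka, kept at 25 °C, were sampled at 10 stages in 2 developmental series, and each series came from its own pair of parents. Each library pooled 10 to 100 embryos, so that every stage has n = 2. Counted from egg laying, st1 was taken at about 9 h with 16 cells, st2 at 15 h with 256 cells, st3 at 20 to 21 h, st4 at 25 to 26 h, st5 early at 31 to 32 h, st5 late at 36 to 37 h, st6 at 42 to 43 h, st7 at 50 h, st8 at 60 h and st10 at 78 h.

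Sox proteins are transcription factors that bind DNA through an HMG box, a domain that bends the double helix. Animals share several groups of them. Group B (Sox2, Sox14 and Sox21 of vertebrates, SoxNeuro and Dichaete of Drosophila) is known for its work in early neural cells, and Dichaete also acts in fly segmentation. In this spider a group B gene is required for the formation of segments. Group C (vertebrate Sox4 and Sox11) acts in progenitors and differentiating neurons, group D includes vertebrate Sox13, and group E (vertebrate Sox8 and Sox9) acts in neural crest and gonad. The names used below are the table's descriptions, given by similarity, and a name need not place a gene model in a group. In particular, Sox14 belongs to group B in vertebrates and to group C in Drosophila.

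Abundance is given as RPKM, the reads of a gene model normalised to its exon length and to the size of the library, as deposited. Library totals recovered from these values lay between 9160802 and 17019009 reads. Across gene models the 2 libraries of a stage correlated with r between 0.949 and 0.981, except at st6, where r was 0.928. There the median over gene models of the difference in log2(RPKM + 1), series 2 minus series 1, was -0.35. Of the 14 Sox gene models, 10 passed the filter for testing (at least 1 RPKM in at least 2 samples), 2 had reads but stayed under it, and 2 had no read in any sample. Only 4 of the 10 reached 1 RPKM in at least 2 of the 6 samples of st1 to st3, and the other 6 passed through later stages. Tests were run with limma on log2(RPKM + 1), a scale that understates the change of weakly expressed genes, over all 13375 gene models that passed, with Benjamini-Hochberg adjustment and a call at an adjusted p under 0.05.

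The embryo changed from 2 abundant Sox transcripts to a broad set. At st1 to st3 nearly all Sox abundance came from aug3.g24914 (Sox-14-like) and aug3.g12938 (SOX-11), at st10 all 10 tested gene models were at 1 RPKM or more in both series, and 3 were at that level in both series at st1. Across the 10 stages 9 of the 10 tested Sox gene models differed in the moderated F test of limma, where 79.8% of all gene models tested were called. From st1 to st10 8 rose, 1 fell and 1 was not called, against 23.2% of all gene models called higher and 34.9% called lower. The median difference of log2(RPKM + 1) from st1 to st10 was 2.97 for the 10 Sox gene models and -0.24 for all gene models tested. With the group that had no reads set at the limit of 3 reads per library, the Sox median was 2.91. The 6 gene models that passed the filter only through later stages are all among the 8 that rose. The filter thus set part of this count, of the Sox median and of the count of 10 at st10. Fewer cells of a type and less RNA per cell cannot be told apart in whole embryos.

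**Figure D1:**
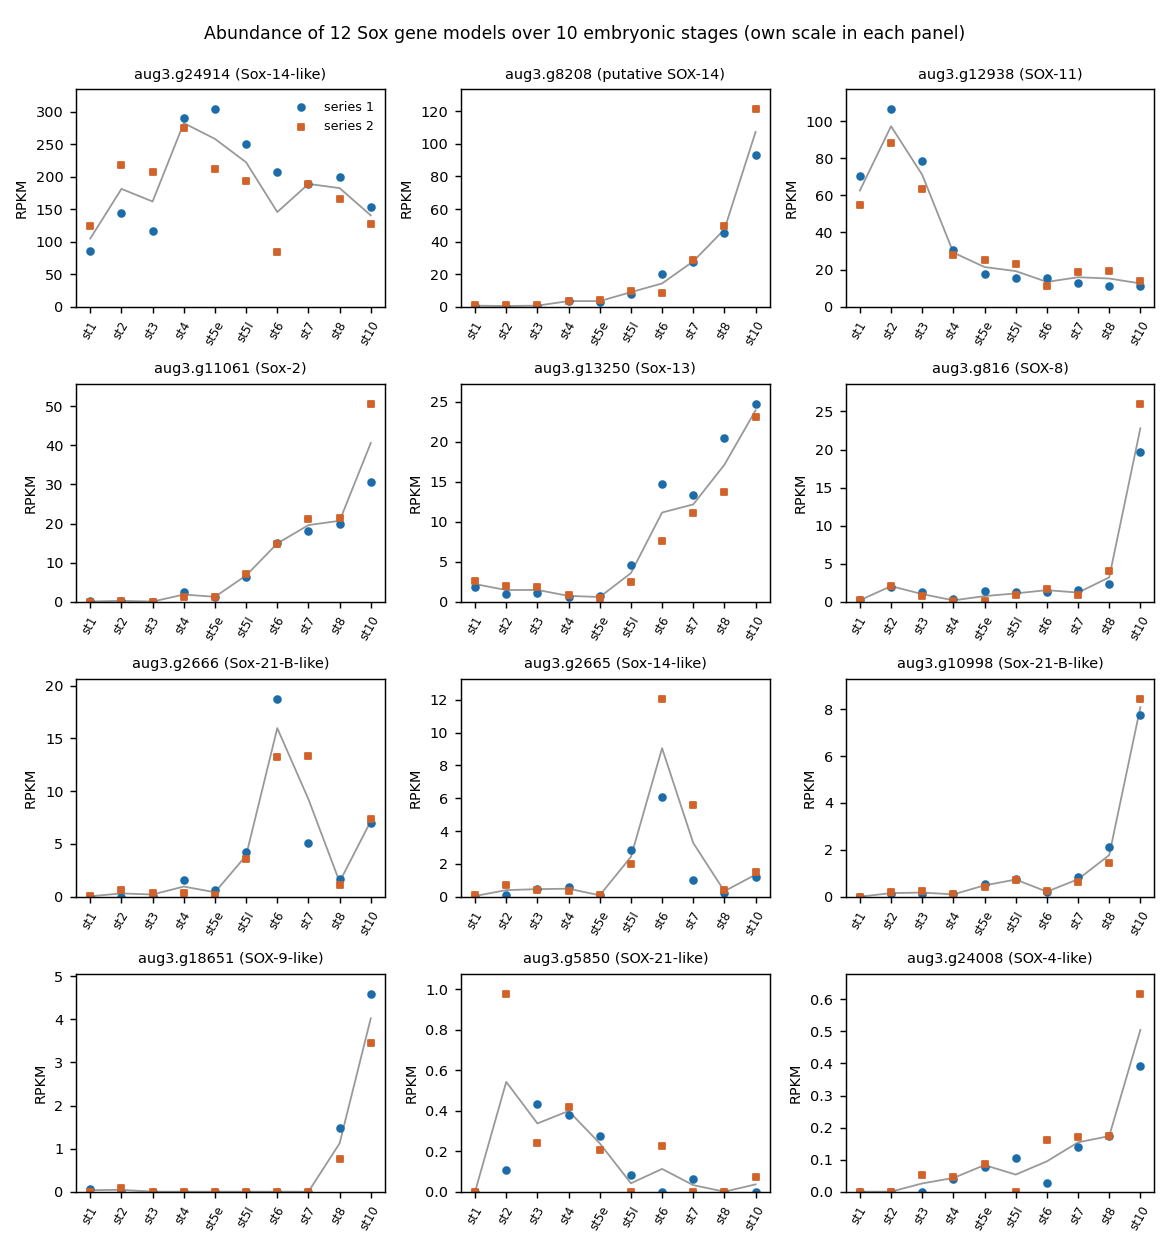
RPKM (y axis, own scale in each panel) of the 12 Sox gene models with reads at the 10 stages (x axis, st5e and st5l for st5 early and late). Points are the single libraries of series 1 and 2 and lines join their means. Of the 10 tested gene models aug3.g12938 alone is called lower at st10 than at st1, at 12.6 against 62.6 RPKM in the means, and 6 of the 10 tested gene models are highest at st10.

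The stages were grouped into 3 periods of 6 samples each, st1 to st3, the germ disc period (st4, st5 early and st5 late) and the germ band period (st7, st8 and st10). The st6 libraries were in the fit but in none of these periods. From st1 to st3 to the germ disc period 5 of the 10 Sox gene models rose and 1 fell. The shares of all gene models called were 24.4% higher and 43.3% lower, and the median differences were 0.41 for Sox and -0.26 for all. From the germ disc to the germ band period 7 rose, 2 fell and 1 was not called, against 28.2% and 18.5% of all gene models. Here the median differences were 1.30 for Sox and 0.05 for all. Apart from aug3.g24914, all Sox gene models that rose into the germ disc period passed the filter only through later stages. So did those that rose into the germ band period, apart from aug3.g13250 and aug3.g816. The filter thus set part of the counts and of the Sox medians in both comparisons. Median-ratio scaling between samples moved the median of all gene models by 0.25 in the first of these comparisons and by -0.07 in the second, and every Sox call between periods kept its direction under it.

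**Figure D2:**
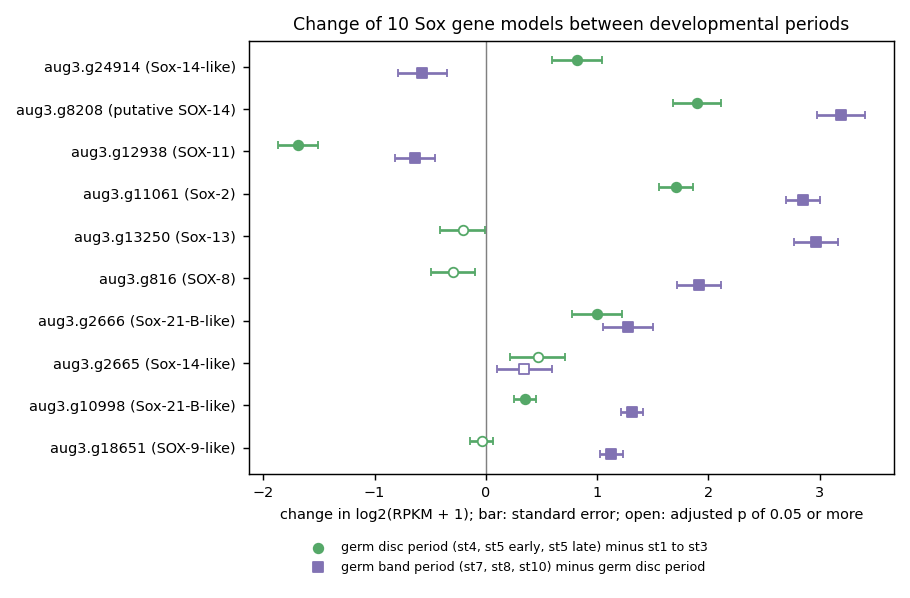
Difference of log2(RPKM + 1) between periods (x axis) for the 10 tested Sox gene models (y axis), with limma standard errors as bars. Circles are the germ disc period minus st1 to st3, squares are the germ band minus the germ disc period, and open symbols have an adjusted p of 0.05 or more. The largest squares are aug3.g8208 at 3.19, aug3.g13250 at 2.97 and aug3.g11061 at 2.85.

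The most abundant Sox gene model at every stage was aug3.g24914, described as Sox-14-like (scaffold 31045, 2566 to 3854, plus strand). Its 1289 bases of exon hold no intron. At st1, st2 and st3 it was measured at 85.4, 144 and 117 RPKM in series 1 and at 125, 219 and 207 RPKM in series 2. At st4, st5 early and st5 late the values were 290, 304 and 251 RPKM in series 1 and 276, 213 and 194 RPKM in series 2. At st7, st8 and st10 they were 189, 199 and 154 RPKM in series 1 and 190, 166 and 128 RPKM in series 2. The germ disc values were the highest, but the st2 and st3 values of series 2 lay within their range, and so did the st8 value of series 1. From st1 to st3 to the germ disc period it rose by 0.82 on the log2 scale (standard error 0.22, limma adjusted p = 0.0048), by 1.30 in series 1 and 0.34 in series 2. The later fall by 0.57 (standard error 0.22, limma adjusted p = 0.049) was lost in 14 of 27 alternatives, 13 of which left out 1 library, and the adjusted p over all of them ranged from 0.0031 to 0.13. It was the only tested member not called across the 10 stages (limma adjusted p = 0.065). At st6, where the libraries of the series differ most, it stood at 207 and 84.4 RPKM in series 1 and 2.

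A second gene model with the same description and the same gene IDs, aug3.g24896 (scaffold 30778, 2566 to 3853, plus strand), is 1 base shorter and was listed at 0 in all 20 samples. Alignments had been filtered for uniqueness, so reads that fit both scaffolds could be missing from the values of aug3.g24914, and its level is uncertain to that extent.

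The other abundant early transcript, aug3.g12938, is described as SOX-11, a group C name. It has no intron (scaffold 1564, 261343 to 262844, minus strand). At st1, st2 and st3 it had 70.3, 106 and 78.5 RPKM in series 1 and 54.8, 88.0 and 63.6 RPKM in series 2. At st4, st5 early and st5 late it had 30.4, 17.5 and 15.4 RPKM in series 1 and 27.9, 25.3 and 23.1 RPKM in series 2. No sample of the germ disc period reached the lowest of the earlier samples. It fell by 1.69 on the log2 scale between these periods (standard error 0.18, limma adjusted p = 1.1e-06), and the step from st3 to st4 alone was a difference of -1.25 (standard error 0.31, limma adjusted p = 0.006, and 0.051 with median-ratio scaling). From the germ disc to the germ band period it fell by a further 0.63 (standard error 0.18, limma adjusted p = 0.0092), with 11.1 to 19.3 RPKM in the 6 later samples, which overlap the germ disc range. It was the only Sox gene model lower at st10 than at st1, with a difference of -2.22 (standard error 0.31, limma adjusted p = 2.6e-05), lower in both series.

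Together the 14 gene models summed to 171 ± 17.7 RPKM at st1 and 369 ± 21.2 RPKM at st10 (SD, n = 2). At st6 the sums of series 1 and 2 were 299 and 154 RPKM. At st1 aug3.g24914 gave 53.9% of the sum in series 1 and 68.0% in series 2, and aug3.g12938 gave 44.4% and 29.9%. At st5 early the share of aug3.g24914 was 92.3% and 86.8%. At st10 it was 43.4% and 33.3%, that of aug3.g12938 was 3.16% and 3.63%, and aug3.g8208 had taken up 26.4% and 31.6%. The number of Sox gene models at 1 RPKM or more in both series was 3 at st1, 4 at st4, 7 at st5 late, 8 at st6, 6 at st7, 8 at st8 and 10 at st10.

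**Figure D3:**
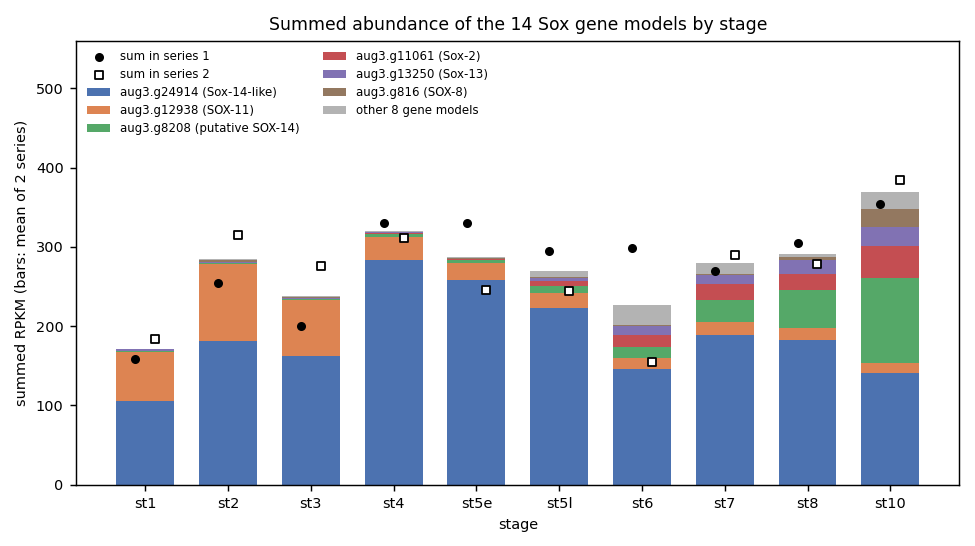
Summed RPKM of the 14 Sox gene models (y axis) by stage (x axis). Bars are means of the 2 series, split by gene model, and the circles and squares are the sums of series 1 and 2. The bar of aug3.g12938 shrinks from 97.2 RPKM at st2 to 29.2 RPKM at st4, and that of aug3.g8208 grows to 107 RPKM at st10.

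The gene model with the name of the vertebrate neural progenitor factor Sox2, aug3.g11061 (scaffold 1253, 129884 to 133774, minus strand), was nearly silent at first. Its 6 samples of st1 to st3 held 1 to 11 reads each, 0.0263 to 0.292 RPKM. At st4, st5 early and st5 late it had 2.45, 1.27 and 6.45 RPKM in series 1 and 1.22, 1.25 and 6.98 RPKM in series 2. At st6, st7, st8 and st10 it had 15.0, 18.0, 19.9 and 30.6 RPKM in series 1 and 14.8, 21.2, 21.5 and 50.5 RPKM in series 2. The 3 periods did not overlap in any sample. It rose by 1.71 into the germ disc period (standard error 0.15, limma adjusted p = 1.5e-07) and by 2.85 from there into the germ band period (standard error 0.15, limma adjusted p = 2.7e-09). Among consecutive stages the rises from st3 to st4 (1.40, standard error 0.26, limma adjusted p = 0.00078) and from st5 early to st5 late (1.77, standard error 0.26, limma adjusted p = 0.0036) were called. The second of these was not called with only the stages compared (limma adjusted p = 0.24). It was also not called without st5 early of series 2, where the difference was still 1.77. The step from st7 to st8, with means of 19.6 ± 2.27 and 20.7 ± 1.09 RPKM (SD, n = 2), was not called.

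A rise through all 3 periods was also measured for aug3.g8208, described as a putative SOX-14, which has no intron (scaffold 881, 243856 to 247009, plus strand). Up to st3 it had 0.432, 0.125 and 0.219 RPKM in series 1 and 0.893, 0.789 and 1.18 RPKM in series 2. At st4, st5 early and st5 late it had 3.47, 2.76 and 7.99 RPKM in series 1 and 3.50, 4.18 and 9.93 RPKM in series 2. At st7, st8 and st10 it had 27.3, 45.3 and 93.3 RPKM in series 1 and 28.5, 49.7 and 121 RPKM in series 2. Again no sample of a later period fell within the range of an earlier one. The rises were 1.90 into the germ disc period (standard error 0.21, limma adjusted p = 2.1e-06) and 3.19 into the germ band period (standard error 0.21, limma adjusted p = 2.7e-08), and the whole difference between st1 and st10 was 6.03 (standard error 0.37, limma adjusted p = 4.9e-09). Of the single steps, that from st3 to st4 was called (1.46, standard error 0.37, limma adjusted p = 0.0069), and it was not called without st3 of series 1 (adjusted p = 0.085). Over the 20 samples its log2(RPKM + 1) correlated with that of aug3.g11061 with r = 0.97, rank 6 among the 13374 other gene models for each of them. The points are stages of the same 2 series, so any pair of genes that rise through development shares this course.

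Sox21 proteins of vertebrates act in neural cells, and 3 gene models carry a Sox-21 name. The first, aug3.g10998 (Sox-21-B-like, scaffold 1244, 417736 to 422729, plus strand), was a late gene. It had no read at st1, and 0.0958 to 0.849 RPKM in the 14 samples from st2 to st7. At st8 and st10 it had 2.13 and 7.74 RPKM in series 1 and 1.42 and 8.43 RPKM in series 2. These 4 samples lay above all earlier ones, and st10 was at least 30.4-fold higher than st1, taken against the mean limit of 3 reads per library. The rise from st8 to st10 was 1.72 on the log2 scale (standard error 0.18, limma adjusted p = 1.3e-05, and 0.079 with only the stages compared). It also rose by 0.35 into the germ disc period (standard error 0.10, limma adjusted p = 0.0065), although 1 to 9 reads per library lie behind the germ disc values, and by 1.32 into the germ band period (standard error 0.10, limma adjusted p = 1e-07).

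The second Sox-21-B-like gene model, aug3.g2666, and a Sox-14-like one, aug3.g2665, are neighbours. Both are on scaffold 405 and the plus strand, the first at 422556 to 429729 and the second at 204486 to 205494, with 217061 bases and no other gene model between them, and their gene IDs are also next to each other in the later assembly CAS_Ptep_4.0. Both had a peak in the middle of the series rather than at its end. From st1 to st5 early aug3.g2666 had 0 to 1.54 RPKM and aug3.g2665 0 to 0.705 RPKM. From st5 late on, at st5 late, st6, st7, st8 and st10, aug3.g2666 had 4.19, 18.7, 5.13, 1.72 and 7.00 RPKM in series 1 and 3.60, 13.2, 13.4, 1.09 and 7.34 RPKM in series 2. At the same stages aug3.g2665 had 2.84, 6.05, 0.990, 0.245 and 1.20 RPKM in series 1 and 2.01, 12.04, 5.56, 0.423 and 1.49 RPKM in series 2. At st6 the value of aug3.g2666 was higher in series 1 and that of aug3.g2665 in series 2, and aug3.g2666 of series 2 was about as high at st7 as at st6. Both were low again at st8, below every value of st5 late to st7 in the same series.

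**Figure D4:**
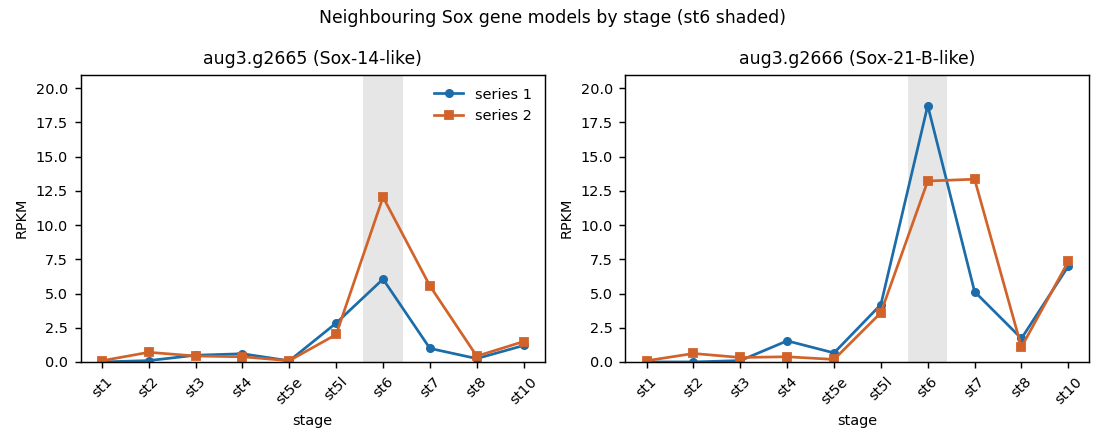
RPKM (y axis, same scale) of the neighbouring gene models aug3.g2665 and aug3.g2666 by stage (x axis), with 1 line per series and st6 shaded. Both peak at st6 in series 1, at 6.05 and 18.7 RPKM, are low at st8, and aug3.g2666 is at 7.00 and 7.34 RPKM at st10.

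For aug3.g2666 the rises into the germ disc period (1.00, standard error 0.23, limma adjusted p = 0.0012) and into the germ band period (1.28, standard error 0.23, limma adjusted p = 0.00031) were called. So was the rise from st8 to st10 (1.78, standard error 0.39, limma adjusted p = 0.012, called in 21 of 27 alternatives). The rise from st5 early to st5 late (1.80, standard error 0.39, limma adjusted p = 0.047) and the fall from st7 to st8 (-1.98, standard error 0.39, limma adjusted p = 0.037) were called in 9 and 10 of 27 alternatives. Both st8 samples of aug3.g2666 lay within its germ disc range of 0.185 to 4.19 RPKM. Its st4 and st5 early samples of series 2, at 0.378 and 0.185 RPKM, lay within the range of st1 to st3, 0 to 0.618 RPKM. The st6 values of both gene models enter neither period difference. For aug3.g2665 neither period difference was called, 0.47 (standard error 0.25, limma adjusted p = 0.11) and 0.35 (standard error 0.25, limma adjusted p = 0.27). The first was called in 4 of 27 alternatives, without either st7 library (adjusted p = 0.025 and 0.024), with a pseudocount of 0.1 (0.042) and with only the stages compared (0.01). The second was 0.63 and called without st7 of series 1 (limma adjusted p = 0.012), and 0.06 without st7 of series 2 (0.83). It differed across the 10 stages in the F test (limma adjusted p = 0.00014). Its rise from st1 to st10 of 1.17 (standard error 0.43, limma adjusted p = 0.029), from 1 read at st1, was not called without the filter or without any 1 of the st1 and st10 libraries, where the adjusted p reached 0.12. Over the 20 samples the pair correlated with r = 0.89, and aug3.g2666 ranked 1st of 13374 gene models in likeness to aug3.g2665, which itself ranked 4th for aug3.g2666. This comparison was chosen after their values were seen, and the points share stages and libraries. Of the 15 gene models on the scaffold, those on the outer sides of the pair, aug3.g2664 and aug3.g2667, had stage means of at most 0.11 and 0.05 RPKM. The next one out, the uncharacterized aug3.g2668, reached a stage mean of 9.12 RPKM at st5 late.

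The Sox-13 gene model, aug3.g13250, has a group D name and spans 68818 bases with 4583 bases of exon (scaffold 1613, 376267 to 445084, minus strand). It was already present at st1, st2 and st3, at 1.82, 0.947 and 1.12 RPKM in series 1 and at 2.59, 1.98 and 1.83 RPKM in series 2. At st4, st5 early and st5 late it had 0.564, 0.743 and 4.64 RPKM in series 1 and 0.893, 0.446 and 2.51 RPKM in series 2. At st6, st7, st8 and st10 it had 14.7, 13.3, 20.5 and 24.7 RPKM in series 1 and 7.58, 11.03, 13.8 and 23.1 RPKM in series 2. It was lowest at st4 and st5 early, and all samples from st6 on were above all earlier ones. The difference between st1 to st3 and the germ disc period was -0.21 (standard error 0.20, limma adjusted p = 0.37). The rise into the germ band period was 2.97 (standard error 0.20, limma adjusted p = 2.6e-08), and no single step was called.

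The group E names belong to aug3.g816 (SOX-8, scaffold 274, 70946 to 140587, plus strand) and aug3.g18651 (SOX-9-like, scaffold 2919, 16976 to 40430, plus strand). At st1, st2 and st3 aug3.g816 had 0.234, 1.98 and 1.24 RPKM in series 1 and 0.164, 2.11 and 0.764 RPKM in series 2. From st4 to st7 it lay between 0.0433 and 1.72 RPKM. At st8 and st10 it had 2.36 and 19.6 RPKM in series 1 and 4.04 and 26.0 RPKM in series 2. The 2 samples of st10 stood far above the other 18, and a small early rise at st2 appeared in both series. The rise from st1 to st2 was 1.35 (standard error 0.34, limma adjusted p = 0.0098, and 0.051 without st1 of series 2) and that from st8 to st10 was 2.52 (standard error 0.34, limma adjusted p = 0.00023, but 0.081 with a pseudocount of 0.1 and 0.078 with only the stages compared). The germ band period as a whole was higher than the germ disc period by 1.92 (standard error 0.20, limma adjusted p = 2e-06), although st7 of series 2, at 0.872 RPKM, lay within the germ disc range.

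Reads of aug3.g18651 were absent from st3 to st7 in both series, and 1 read was seen in 1 library each of st1 and st2. At st8 it had 1.48 RPKM in series 1 and 0.762 RPKM in series 2, from 25 and 13 reads, and at st10 it had 4.59 and 3.46 RPKM, from 63 and 55 reads. It thus appeared last of the tested Sox gene models. Against the mean limit of 3 reads per library at st7, where 0 reads were found, st8 was at least 5.96-fold and st10 at least 21.4-fold higher. The steps from st7 to st8 (1.06, standard error 0.18, limma adjusted p = 0.011) and from st8 to st10 (1.26, standard error 0.18, limma adjusted p = 0.00034, but 0.058 with a pseudocount of 0.1) were both called, the first not without st8 of series 1 or either st7 library. With only the stages compared neither step was called, and over the alternatives the limma adjusted p of the second reached 0.14. Between the germ disc and the germ band period it rose by 1.13 (standard error 0.10, limma adjusted p = 6e-07), while both st7 libraries were at 0.

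Of the members outside the tests, aug3.g5850 (SOX-21-like, scaffold 695, 14637 to 15684, minus strand) had 36 reads in all, with at most 0.977 RPKM, from 10 reads, at st2 of series 2. Its reads lay mostly between st2 and st5 early, when the other Sox-21 gene models were at 1.54 RPKM or less. A group C name, SOX-4-like, is carried by aug3.g24008 (scaffold 73, 1221201 to 1304316, plus strand), which had 69 reads, with at most 0.617 RPKM, from 20 reads, at st10 of series 2. The SOX-4-like gene model aug3.g16006 (scaffold 2116, 133795 to 140816, minus strand) shares its gene ID and was listed at 0 in all samples. At this depth 3 reads correspond to 0.0831 to 0.154 RPKM for aug3.g24008. Lower values of it came from fewer reads, such as 0.0285 RPKM from 1 read at st6 of series 1.

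Between consecutive stages the Sox calls are given beside the shares of all gene models. From st8 to st10 4 of the 10 rose (aug3.g816, aug3.g10998, aug3.g18651 and aug3.g2666), while 4.17% of all gene models tested were called higher. With a pseudocount of 0.1 only 1 of the 4 was called, and with only the stages compared 0 were. From st3 to st4 2 rose (aug3.g11061 and aug3.g8208) and aug3.g12938 fell, against 8.72% higher and 26.5% lower. The total of 3 Sox calls is near the share of all gene models. The directions rest on these 3 calls in 10 gene models, and the filter set part of them, as the 2 that rose passed it only through later stages. From st1 to st2 only aug3.g816 rose, where 9.78% of all gene models were called higher. From st5 early to st5 late aug3.g11061 and aug3.g2666 rose, against 0.426% called higher. From st7 to st8 aug3.g18651 rose and aug3.g2666 fell, against 0.546% higher and 0.0748% lower. Apart from aug3.g816, every Sox gene model called higher at a step passed the filter only through later stages. The filter thus set part of the counts of rises that stand beside these shares. By limma 0 Sox gene models were called at the 4 other steps, into st3, st5 early, st6 and st7, where 4.50%, 1.34%, 0.606% and 0.359% of all gene models were called in either direction. At an unadjusted p under 0.05 these steps had 0, 1, 5 and 3 Sox gene models, and limma's voom on recovered reads also called 0 in each. At the steps into and out of st6 the counts of 0 changed with single libraries: they became 4 and 3 without st6 of series 1, 1 and 0 without st6 of series 2, 2 and 0 without st7 of series 1, and 2 and 1 without st7 of series 2.

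Between the series 0 of the 10 Sox gene models differed by limma with stage as a factor, and 0 had an unadjusted p under 0.05, where 10.5% of all gene models were called. With voom 0 were called and 1 had an unadjusted p under 0.05.

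For the 3 most abundant members the gene models with the most similar course over the 20 samples are given as a description. The closest to aug3.g24914 were aug3.g27685, a C-terminal-binding protein, which is a transcriptional corepressor (r = 0.89), aug3.g10800, the Fe-S cluster assembly factor nubp1 (r = 0.88), and aug3.g17963, a PRADC1-like protein (r = 0.87), all highest at st4. The closest to aug3.g8208, each with r = 0.98, were the uncharacterized aug3.g1853, aug3.g18916, an alcohol dehydrogenase class-3, and aug3.g25662, described as sialin, a lysosomal transporter, all highest at st10. The closest to aug3.g12938 were aug3.g19499, which has no description (r = 0.98), aug3.g6008, a formin-like protein of the actin cytoskeleton (r = 0.97), and aug3.g18350, spermatogenesis-associated protein 5-like 1 (r = 0.97), all highest at st2.

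Other gene groups give the setting of these courses. A list of 19 further gene models, all tested, was matched by names linked to HMG proteins, and such a name need not mean an HMG box. From the germ disc to the germ band period 7 of the 19 rose and 2 fell, with a median difference of 0.30 beside 0.05 for all gene models, of which 28.2% were called higher and 18.5% lower. These shares are the background for each list below. From st1 to st10 9 of the 19 rose and 2 fell, against 23.2% and 34.9% of all gene models. Among them aug3.g16167, an HMG-I/HMG-Y-like chromatin protein, rose by 1.35 and aug3.g18413, a WD repeat and HMG-box protein of DNA replication, by 0.96. Pangolin is the HMG-box factor of Wnt signalling. Of the 4 gene models with its name, aug3.g10490 fell by 1.17 and aug3.g865 was also called (limma adjusted p = 0.003, with stage means of 6.44 RPKM at st5 late and 3.07 RPKM at st10), while aug3.g10429 and aug3.g18357 were not called.

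POU proteins bind DNA beside group B Sox proteins in vertebrates. The POU list had 7 gene models, of which 6 were tested, and it includes non-POU octamer-binding proteins, a different family. Into the germ band period 3 of the 6 rose and the other 3 were not called, with a median difference of 0.83, against 28.2% of all gene models called higher. The POU class 2 gene models aug3.g13365 and aug3.g13364 rose by 1.84 and 1.62, and the POU class 3 gene model aug3.g15946 by 1.45. All 3 had their highest stage mean at st10, at 20.3 ± 4.79, 10.96 ± 0.655 and 11.2 ± 3.51 RPKM (SD, n = 2).

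Of 36 early neural gene models 21 were tested, and 11 rose and 3 fell into the germ band period, with a median difference of 0.68, against 28.2% and 18.5% of all gene models. The total of 14 became 9 without st10 of series 2. The proneural achaete-scute gene model aug3.g15679 rose by 2.35 and reached 39.4 ± 5.21 RPKM at st10 (SD, n = 2). Of the other tested achaete-scute gene models, aug3.g5047 also rose (limma adjusted p = 0.00018), while aug3.g27206 and aug3.g13882 were not called (0.11 each). Stage means of aug3.g27206 were 46.7 RPKM at st2, 54.7 RPKM at st3 and 26.1 RPKM at st10. The 3 that fell were the snail gene model aug3.g416 (limma adjusted p = 0.018) and the CUGBP Elav-like aug3.g14744 and aug3.g3061 (0.028 each). The other names in this list with the largest differences, aug3.g6789 (1.34) and aug3.g4998 (1.21), are CUGBP Elav-like proteins, which regulate RNA splicing in many tissues. The muscle and mesoderm list also holds twisted gastrulation aug3.g7081, a regulator of BMP signalling, which was not called. Of its 12 tested gene models 6 rose and the other 6 were not called (median difference 0.67, against 28.2% of all gene models called higher), with twist-related aug3.g14287 at 1.92 and the MEF2 gene models aug3.g110 at 1.32 and aug3.g27977 at 0.99. The endoderm list also holds GATA zinc finger domain-containing proteins of another kind. It had 12 tested gene models, of which 4 rose and 1 fell (median difference 0.25), near the 28.2% and 18.5% of all gene models. Among them were aug3.g20514 at 3.80, HNF4-gamma aug3.g26734 at 1.89 and GATA-4 aug3.g26874 at -2.45. The description of aug3.g20514 is endothelial transcription factor GATA-2-like, so it need not mark endoderm. Gene models of these lists changed over the same stages as the Sox gene models, and the part of changing tissue composition in the Sox values was not tested.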

How the data were processed

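Poly(A) RNA of whole embryos had been sequenced by the authors, who aligned the reads to Ptep_1.0 with BLAT, kept alignments by coverage, identity and uniqueness, counted them by strand with HTSeq 0.6.1p1 and deposited RPKM for each AUGUSTUS gene model. Read counts, exon lengths and library totals were recovered from these values. A whole length (tolerance 0.01 reads) was found for 21736 of 21765 gene models with reads (99.9%). Libraries held 9160802 to 17019009 reads, and the limit of 3 reads covers counting error only.

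RPKM values are not counts, so log2(RPKM + 1) was fitted with limma 3.58.1 in R 4.3.3 (10 stage means, 10 residual degrees of freedom, eBayes with trend) over 13375 gene models at 1 RPKM or more in at least 2 samples, with Benjamini-Hochberg adjustment. The fit was tested on simulated data. Series differences were fitted with stage as a factor. The 10 samples of a replicate number share a pair of parents. Over 45 pairs of stages the deviations of the series correlated with a median r of 0.24, from -0.06 to 0.70, and 37 were over 0.1. Members were named in full if called in the F test with a stage mean of at least 5 RPKM, or called between stages, and of each list the 3 with the largest called germ band differences. The members and lists were chosen with earlier results of these data known. Gene IDs were looked up in CAS_Ptep_4.0 for names and neighbours only: 11 of 14 IDs matched. Alternatives changed the pseudocount, the filter, the scaling, the samples fitted, the block for the series, the values (voom on recovered reads) or left out 1 library. Coverage tracks were not used here. Tables were made with Python 3.11.15.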

Additional observations from a re-analysis of the deposited data

Results flagged for a closer look

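For 2 Sox gene models the series moved in opposite directions between periods, and this difference was not tested. From st1 to st3 to the germ disc period the Sox-13 gene model aug3.g13250 changed by 0.13 on the log2(RPKM + 1) scale in series 1 and by -0.55 in series 2. From the germ disc to the germ band period the Sox-14-like gene model aug3.g2665 changed by -0.095 in series 1 and by 0.79 in series 2. Neither pooled difference was called.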

How the results depend on the processing

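No called Sox difference changed direction under any alternative or in either series alone. The counts across stages, of gene models higher in each period and at st10 stayed within 1.5 times. The count lower in the germ band period (2) became 1 without the filter. The count from st1 to st2 (1) became 2 with a pseudocount of 0.1, with median-ratio scaling and with voom. From st5 early to st5 late (2) it was 1 without the filter, 1 with voom and 0 with only the stages compared, and 3 with the replicate block, which changed no other Sox count. From st5 late to st6 (0) it was 2 with median-ratio scaling. From st7 to st8 (2) it was 1 with voom, with a pseudocount of 0.1, without the filter and at a minimum RPKM of 5, and 0 with only the stages compared. At a minimum RPKM of 5 aug3.g18651, at most at 4.59 RPKM, was not tested, so it did not lose its call there. From st8 to st10 (4) it was 1 with a pseudocount of 0.1 and 0 with only the stages compared, where fewer samples enter. The causes of the other changes were not tested. Leaving out each of the 20 libraries gave 1 to 2 lower in the germ disc period (2 without st5 early of series 1), 1 to 2 lower in the germ band period, 0 to 1 from st1 to st2, 0 to 3 from st5 early to st5 late (0 without st5 early of series 2), 0 to 4 from st5 late to st6, 0 to 3 from st6 to st7, 0 to 2 from st7 to st8 (0 without st8 of series 1 or st7 of series 2), 0 to 1 between the series (1 without either st6 library) and 9 to 16 early neural gene models in the germ band comparison. In a stage with 1 library left, that sample is assumed to vary like the others. Depth limits aug3.g18651, aug3.g5850 and aug3.g24008 most, which had 158, 36 and 69 reads in all 20 libraries.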
